A study of Homo sapiens with 6 samples.

Results

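Box C/D small nucleolar RNAs (snoRNAs) made from genes other than GAS5 and SNHG1 were examined in the short RNA of Caco2 cells. They were taken as every row of the deposited table with a non-coding RefSeq name and a symbol starting with SNORD, leaving out the rows inside the GAS5 and SNHG1 genes. The rule found 52 of 3437 rows, which carry 50 symbols at 50 loci and include SNORD17, SNORD63, SNORD71, SNORD119 and SNORD18A. Caco2 is an established human cell line from colon epithelium. Short RNA was sequenced from 3 samples of Caco2 wild type (Caco2 WT) and 3 samples of PIWIL2 knockout (PIWIL2 KO) cells, to ask how short RNAs differ when PIWIL2, an Argonaute-family protein of the PIWI pathway, is depleted. The PIWIL2 KO cells are a single clone made with CRISPR/Cas9, in which the study describes full-length PIWIL2 as reduced and not as lost, so that genotype and clone cannot be told apart. By the study's account the clone carries a modified PIWIL2 allele, with a deletion in an intron and a changed splice site, beside an unaffected one. Its cells went through transfection and puromycin selection, which is not stated for Caco2 WT. PIWIL2 itself was not analysed here.

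The table gives 1 pooled sense and 1 pooled antisense value per genotype, as CPM, which is counts scaled to the uniquely mapped reads. There was therefore no replicate error and no test between the genotypes. Each ratio below is PIWIL2 KO over Caco2 WT, and the interval in parentheses is an exact (Clopper-Pearson) 95% interval that covers counting error only. It rests on reads estimated from the spacing of low CPM values, about 12900000 in Caco2 WT and 13500000 in PIWIL2 KO. By this estimate 3 reads, the limit that a count of 0 allows, are 0.233 CPM in Caco2 WT and 0.222 in PIWIL2 KO. A pseudocount of 0.1 CPM was added before log2 ratios, so the differences of low rows are understated. Reads reached at most 50 bases, so a snoRNA longer than that was seen as a part of its length, and a value here is a level of short reads and not of the full-length snoRNA.

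Box C/D snoRNAs are nucleolar RNAs, most of which in human cells are cut out of the introns of host genes. They carry a box C near the 5′ end and a box D near the 3′ end, at which the proteins fibrillarin, NOP56, NOP58 and SNU13 assemble. The bases just before a box D, or before an internal copy of it called D′, pair with a target RNA and direct the methylation of a ribose there. Most guide methylation of ribosomal RNA (rRNA), some guide the U6 small nuclear RNA (snRNA) of the spliceosome, and those with no established target are called orphans.

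The annotation (GENCODE 44 on GRCh37, the build of the deposited coordinates) held a sequence for 46 of the 50 loci, of 64 to 237 bases with a median of 78.5. Box C, searched as TGATG in the first 16 bases, was found in 36 of the 46. Box D, searched as CTGA in the last 16 bases, was found in 42, and both were found in 36, or 78.3%. None of 20 box H/ACA snoRNAs (SNORA, the class that guides pseudouridylation) held both. SNORD17 and SNORD43 show the layout, and were chosen as a member with a large and one with a small difference at high level. Both are on the minus strand, SNORD17 at chr20:17943353-17943589 in an intron of SNX5 and SNORD43 at chr22:39715055-39715118 in an intron of RPL3. Capitals mark boxes C and D, 5′ to 3′.
SNORD17: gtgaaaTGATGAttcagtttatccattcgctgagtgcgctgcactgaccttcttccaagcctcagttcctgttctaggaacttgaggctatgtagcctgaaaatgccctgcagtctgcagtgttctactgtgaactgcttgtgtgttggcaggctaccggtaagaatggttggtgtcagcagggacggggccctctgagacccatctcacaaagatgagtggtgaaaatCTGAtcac
SNORD43: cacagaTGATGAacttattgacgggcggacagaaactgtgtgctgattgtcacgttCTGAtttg

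Perfect complementarity of at least 10 bases to the ribosomal DNA unit or to U6 was searched in the same sequences. Of the 35 loci in the rRNA class, 34 held such a run to the side of the unit that their target class names, and in 24 the run lay next to a CTGA. Both members of the U6 class held a run to U6 next to a CTGA. Among the 9 orphans 5 held a run to rRNA, 4 of them next to a CTGA (SNORD83A, SNORD83B, SNORD54 and SNORD90). Of the 20 SNORA sequences 8 held a run and none of these lay next to a CTGA. A run is a description of the letters and not a mapped target site. The members with the largest ratios at high level, the SNORD18 family, SNORD8 and SNORD59A are given with the run in capitals, all on the minus strand of GRCh37, since the comparisons turn on them. In all of these but SNORD71 the run lies next to a CTGA.
SNORD63, chr5:137896732-137896799: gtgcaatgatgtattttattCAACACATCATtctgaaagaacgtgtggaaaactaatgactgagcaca
SNORD119, chr20:2443608-2443683: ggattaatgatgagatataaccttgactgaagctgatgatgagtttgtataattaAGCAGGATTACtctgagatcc
SNORD71, chr16:71792305-71792390: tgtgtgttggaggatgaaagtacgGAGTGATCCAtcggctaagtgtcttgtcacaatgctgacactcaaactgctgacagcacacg
SNORD18A, chr15:66795581-66795652: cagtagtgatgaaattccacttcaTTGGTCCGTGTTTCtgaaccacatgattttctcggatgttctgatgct
SNORD18B, chr15:66794358-66794429: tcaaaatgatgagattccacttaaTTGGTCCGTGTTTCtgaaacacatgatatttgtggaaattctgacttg
SNORD18C, chr15:66793588-66793656: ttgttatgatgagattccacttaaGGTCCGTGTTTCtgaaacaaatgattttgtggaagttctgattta
SNORD8, chr14:21865451-21865560: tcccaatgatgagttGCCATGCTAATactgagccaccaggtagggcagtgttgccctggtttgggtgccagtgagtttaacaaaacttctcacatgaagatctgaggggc
SNORD59A, chr12:57038811-57038885: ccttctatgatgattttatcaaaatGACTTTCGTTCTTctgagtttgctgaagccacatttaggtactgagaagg

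The 52 rows summed to 1163 sense CPM in Caco2 WT against 2210 in PIWIL2 KO, which was 21.1% and 29.8% of the sense CPM of all deposited rows. Antisense CPM was listed at 0 for all 52 in both genotypes, while some rows of protein-coding transcripts held antisense CPM above 0. All 688 non-coding rows of the table lie on the minus strand of the genome, so box C/D snoRNAs on the plus strand were not analysed here.

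Of the 52 rows, 48 reached a mean of 0.3 sense CPM and entered counts and medians. The other 4 are 2 rows each of SNORD103A and SNORD103B, copies of identical sequence, and each was listed at 0.12 CPM in Caco2 WT against 0.31 in PIWIL2 KO. Most of the 48 had higher short RNA levels in PIWIL2 KO. Their sum was 1.90 times as high (1.86 to 1.94), and the median log2 ratio was 0.87, with a range from -0.25 to 3.31, against a median of 0.48 over all 161 rows that reached the same minimum. Without SNORD17 the ratio of the sums was 1.47 (1.43 to 1.5) and the median was again 0.87. A few of the 48 held most of the signal. In Caco2 WT, SNORD50A, SNORD17 and SNORD43 together made up 55.3% of their sense CPM, and in PIWIL2 KO, SNORD17, SNORD50A and SNORD63 made up 59.2%. SNORD17 alone went from 15% to 34.4%, and it held 55.9% of the difference between the sums.

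Sense CPM was higher in PIWIL2 KO for 44 of the 48 (91.7%), against 68.9% of all 161 rows, and lower for 4 (8.33%), against 30.4%. It was at least 2-fold higher for 22 (45.8%), against 27.3% of all rows, and at least 2-fold lower for 0, against 8.7%. Among the 22, SNORD18B, SNORD90 and SNORD99 stood under 0.3 CPM in Caco2 WT. They reached the minimum mean only through PIWIL2 KO, so a high ratio was built into their selection. All 161 rows passed through the same filter. The counting interval lay above 1 for 35 of the 48 (72.9%), against 41.6% of all rows, and below 1 for 0, against 9.94%. The split depends on the scaling: when PIWIL2 KO values were multiplied by 0.744 so that all deposited rows had equal sense sums, a shift of -0.43 on the log2 scale, 34 of the 48 were higher (70.8%) and 14 lower, against 52.8% of all 161 rows higher. When values were centred on the median of the 35 protein-coding rows, a shift of 0.28, all 48 were higher, against 81.4% of all rows. Any positive log2 ratio under 0.43 therefore turns under the equal-sum scaling.

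**Figure D1:**
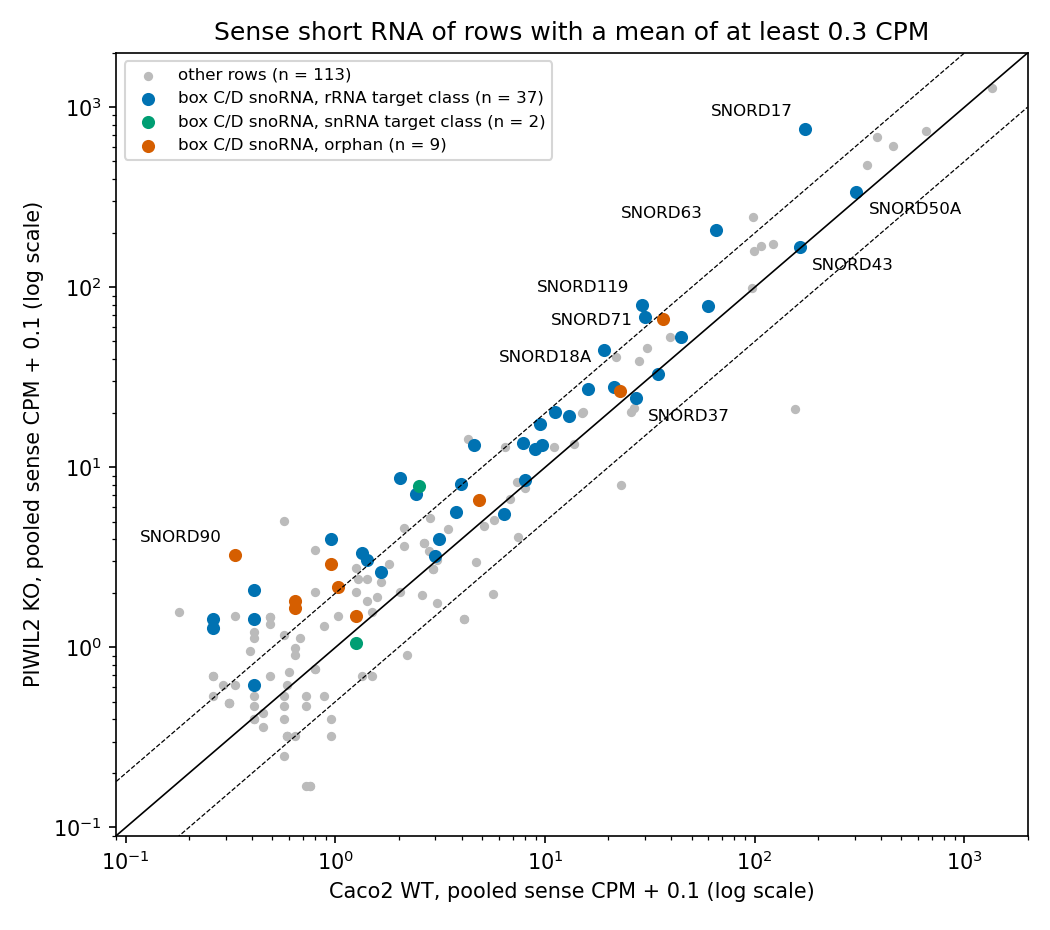
Sense CPM plus 0.1 in Caco2 WT (x axis) against PIWIL2 KO (y axis), both on log scales, for the 161 rows whose mean reached 0.3 CPM; each point is 1 row, colours mark the target class of the 48 box C/D snoRNAs, grey points are the other rows, the solid line marks equal values and the dashed lines 2-fold differences. SNORD17 and SNORD63 lie above the upper dashed line at high level, whereas SNORD50A and SNORD43 lie close to equality, and no box C/D snoRNA lies below the lower dashed line.

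The abundant members with the largest ratios were SNORD17, SNORD63, SNORD119, SNORD18A and SNORD71, each in the intron of a different gene. SNORD17, a guide for 28S rRNA, stood at 174 CPM in Caco2 WT against 760 in PIWIL2 KO, a ratio of 4.36 (4.16 to 4.56). It was second in Caco2 WT behind SNORD50A and first in PIWIL2 KO. SNORD63, a 28S guide in HSPA9 (a mitochondrial heat shock protein gene), stood at 65 and 207 CPM, a ratio of 3.19 (2.95 to 3.45). SNORD119, in SNRPB (a spliceosomal core protein gene), stood at 28.9 and 79.6 CPM, a ratio of 2.75 (2.44 to 3.10).

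SNORD71, a guide for 5.8S rRNA in AP1G1 (an adaptor protein gene), stood at 29.9 CPM in Caco2 WT against 68.1 in PIWIL2 KO, a ratio of 2.28 (2.02 to 2.57). SNORD18A, a 28S guide in RPL4 (a ribosomal protein gene), stood at 19.08 and 44.95 CPM, a ratio of 2.36 (2.03 to 2.74). The interval of SNORD17 lies above those of the other 4. The interval of SNORD119 overlaps those of SNORD63, SNORD18A and SNORD71, and those of SNORD71 and SNORD18A overlap each other. Overlap of separate intervals does not settle whether 2 ratios differ, and the order within these pairs was not tested. In PIWIL2 KO, SNORD119 at 79.6 CPM and SNORD20 at 78.7 CPM were too close to be ordered.

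Some other abundant members had ratios close to 1. SNORD50A, the most abundant in Caco2 WT, stood at 305 CPM there and 340 CPM in PIWIL2 KO, the ratio being 1.12 (1.07 to 1.16) that falls below 1 under the equal-sum scaling. SNORD43, an 18S guide, stood at 164 and 167 CPM, and its interval held 1 (0.963 to 1.08). SNORD20, an 18S guide in NCL (the nucleolin gene), stood at 59.9 and 78.7 CPM, a ratio of 1.31 (1.20 to 1.44), which also falls below 1 under that scaling. So did the ratio of 1.19 (1.06 to 1.33) for SNORD60, at 44.6 and 52.9 CPM.

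The 4 members with lower CPM in PIWIL2 KO all had intervals that held 1. SNORD37, a 28S guide in EEF2 (a translation elongation factor gene), stood at 27.0 CPM in Caco2 WT against 24.2 in PIWIL2 KO, a ratio of 0.897 (0.769 to 1.05). SNORD59B stood at 34.5 and 32.8 CPM, a ratio of 0.95 (0.830 to 1.08). SNORD88B stood at 6.28 and 5.39 CPM, and SNORD67 at 1.16 and 0.96 CPM. Under the centring on protein-coding rows all 4 were higher in PIWIL2 KO.

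**Figure D2:**
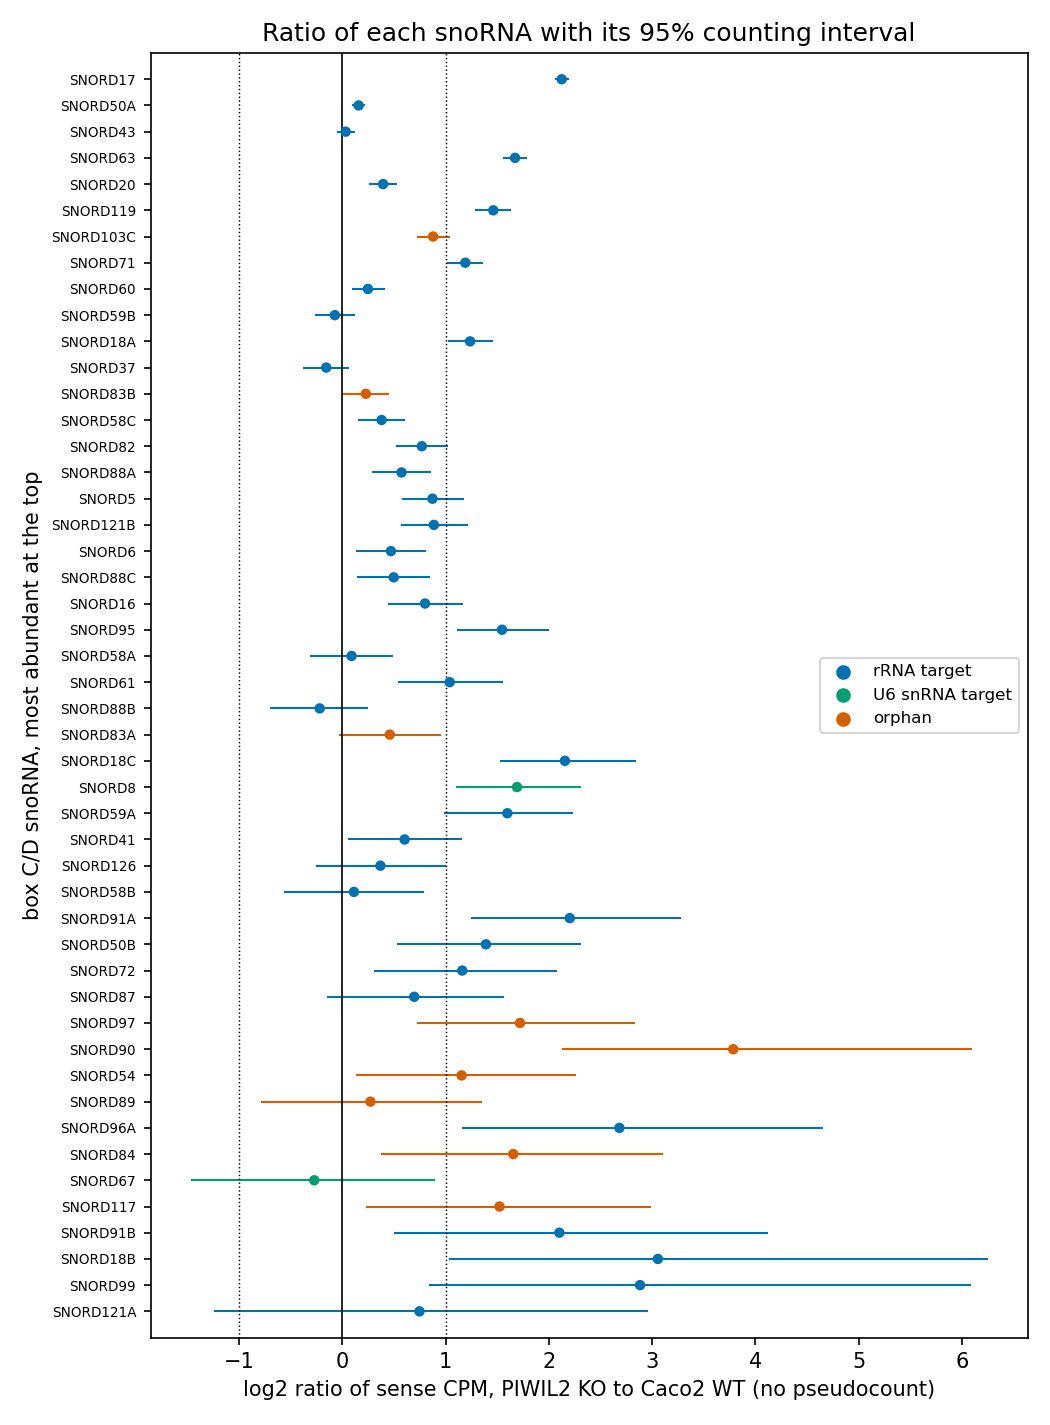
Log2 ratio of sense CPM, PIWIL2 KO to Caco2 WT without a pseudocount (x axis), for the 48 box C/D snoRNAs ordered by mean level (y axis, most abundant at the top); points are pooled values, horizontal lines are 95% counting intervals, colours mark the target class and dotted lines 2-fold differences. The intervals widen toward the bottom, where few reads were counted, and SNORD17 at the top has an interval from 4.16 to 4.56 as a ratio.

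Target classes were assigned from background knowledge of each snoRNA, with 36 of the 48 assignments held as sure and 12 as unsure. The rRNA class held 37 members with a median log2 ratio of 0.79. In this class 34 were higher in PIWIL2 KO (91.9%, against 68.9% of all 161 rows) and 3 were lower (8.11%, against 30.4%). In 16 the value was at least 2-fold higher (43.2%, against 27.3% of all rows). Under the equal-sum scaling the median of the rRNA class was 0.37. The 9 orphans had a median of 1.08. All 9 were higher, 5 of them at least 2-fold (55.6%), against the same shares of all rows. The sums lay in the other order, at a ratio of 1.91 (1.88 to 1.95) for the rRNA class and 1.65 (1.52 to 1.80) for the orphans. Without SNORD17 the other 47 members, orphans included, summed to a ratio of 1.47 (1.43 to 1.5), below that of the orphans. The order of the sums therefore rests on SNORD17. The orphan sum leans in turn on SNORD103C, an orphan by an unsure assignment. It held 36.2 of 67.85 CPM in Caco2 WT and 66.6 of 112.27 CPM in PIWIL2 KO, and no orphan sum without it was formed. With a pseudocount of 1 CPM both medians were 0.73, so no order of the classes is given.

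Within the rRNA class, the 28 members that guide 28S rRNA summed to a ratio of 2.18 (2.13 to 2.23), and the 7 that guide 18S rRNA summed to 1.16 (1.11 to 1.21). Their median log2 ratios were 0.76 and 0.77, so the sums differed while the medians were close. Without SNORD17 and SNORD63 the ratio of the 28S sum was 1.34 (1.30 to 1.39). The 18S sum was 288 CPM in Caco2 WT and 334 in PIWIL2 KO, and SNORD43 alone held 164 and 167 of these. No 18S sum without SNORD43 was formed, so 1.34 and 1.16 are not like measures. No order of the 28S and 18S guides is therefore given. Among the 18S guides, SNORD61 in RBMX stood at 3.88 CPM in Caco2 WT against 7.97 in PIWIL2 KO, a ratio of 2.05 (1.46 to 2.93). Of the 5.8S guides, SNORD96A in RACK1 went from 0.31 to 1.99 CPM beside SNORD71.

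Of the U6 guides, SNORD8 in an intron of CHD8 (a chromatin remodeller gene) stood at 2.40 CPM in Caco2 WT against 7.75 in PIWIL2 KO, a ratio of 3.23 (2.14 to 4.98). SNORD67, in CKAP5 (a microtubule-binding protein gene), had a ratio of 0.828 (0.361 to 1.86), from about 15 and 13 reads, and its direction was not resolved. The most abundant orphan, by an unsure assignment, was SNORD103C, at 36.2 and 66.6 CPM and a ratio of 1.84 (1.64 to 2.06). It held the same 10-base run to the 18S side of the ribosomal DNA unit as SNORD103A and SNORD103B. Those copies are counted in the rRNA class, also by unsure assignments. In SNORD103C the run did not lie next to a CTGA. The orphan SNORD90, in RC3H2, had the largest log2 ratio of all members, 3.31, but it rests on 3 estimated reads in Caco2 WT and 43 in PIWIL2 KO, a ratio of 13.8 (4.36 to 68.7). SNORD90 also reached the minimum mean only through PIWIL2 KO.

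All 48 members lie in introns of 31 host genes. The 12 members in ribosomal protein genes had a median log2 ratio of 0.62 and summed to 254 CPM in Caco2 WT against 313 in PIWIL2 KO, a ratio of 1.23 (1.18 to 1.29). The 36 in other genes had a median of 0.88 and summed to 908 and 1896 CPM, a ratio of 2.09 (2.04 to 2.13). SNORD17 alone held 174 and 760 CPM of the latter sums, and SNORD43 held 164 and 167 CPM of those in ribosomal protein genes. The contrast of the sums leans on these members. Host sums without them were not formed, so the sums give no order of the host classes. With 1 value per host gene the medians lay the other way, at 1.08 for the ribosomal protein hosts and 0.81 for the others. The 1.08 is the value of RPS20, the middle one among RPL17, RPL3, RPS20, RPL37 and RPL4. RPS20 holds only SNORD54, which rests on about 12 reads in Caco2 WT and 28 in PIWIL2 KO, so neither order is resolved. The lower median of the ribosomal protein hosts thus depends on counting each member of hosts such as RPL3 and RPL17.

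Members of the same host can be compared without regard to library scaling, by dividing the ratio of one by that of the other. There were 23 such pairs in 12 hosts, and in 9 the counting interval of this quotient left out 1. In ATP5F1B (a mitochondrial ATP synthase gene), SNORD59A stood at 2.33 CPM in Caco2 WT against 7.05 in PIWIL2 KO, and the ratio of SNORD59B was 0.315 times (0.198 to 0.491) that of SNORD59A. In SNHG5, SNORD50B stood at 1.24 and 3.25 CPM, and its ratio was 2.35 times (1.30 to 4.46) that of SNORD50A. In NCL, the ratio of SNORD82 (15.9 and 27.1 CPM) was 1.30 times (1.06 to 1.58) that of SNORD20.

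RPL4 hosts 4 members, all higher in PIWIL2 KO under each scaling. SNORD16, an 18S guide, stood at 7.76 CPM in Caco2 WT against 13.5 in PIWIL2 KO. SNORD18C stood at 1.94 and 8.64 CPM, a ratio of 4.45 (2.87 to 7.16). SNORD18B stood at 0.16 and 1.33 CPM, from about 2 and 18 reads, a ratio of 8.31 (2.05 to 76.1). It reached the minimum mean only through PIWIL2 KO. The ratios of SNORD18A and SNORD18C were 1.35 times (1.005 to 1.81) and 2.55 times (1.53 to 4.38) that of SNORD16, and that of SNORD18C was 1.89 times (1.18 to 3.12) that of SNORD18A. The SNORD18 sequences were 77.8% to 84.7% identical to each other, and how reads that match several copies were shared was not tested.

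The 3 members in C19orf48P were 87.9% to 91.2% identical, and SNORD88A stood at 12.95 CPM in Caco2 WT against 19.3 in PIWIL2 KO. The ratio of SNORD88B was 0.577 times (0.391 to 0.851) that of SNORD88A, and how the near-identical copies shared reads was not tested. In RPL3, none of the 3 pairs among SNORD43, SNORD83A and SNORD83B differed beyond counting error. The same held for the 3 pairs of SNORD58A, SNORD58B and SNORD58C in RPL17, whose ratios of 1.06, 1.08 and 1.30 all fall below 1 under the equal-sum scaling.

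**Figure D3:**
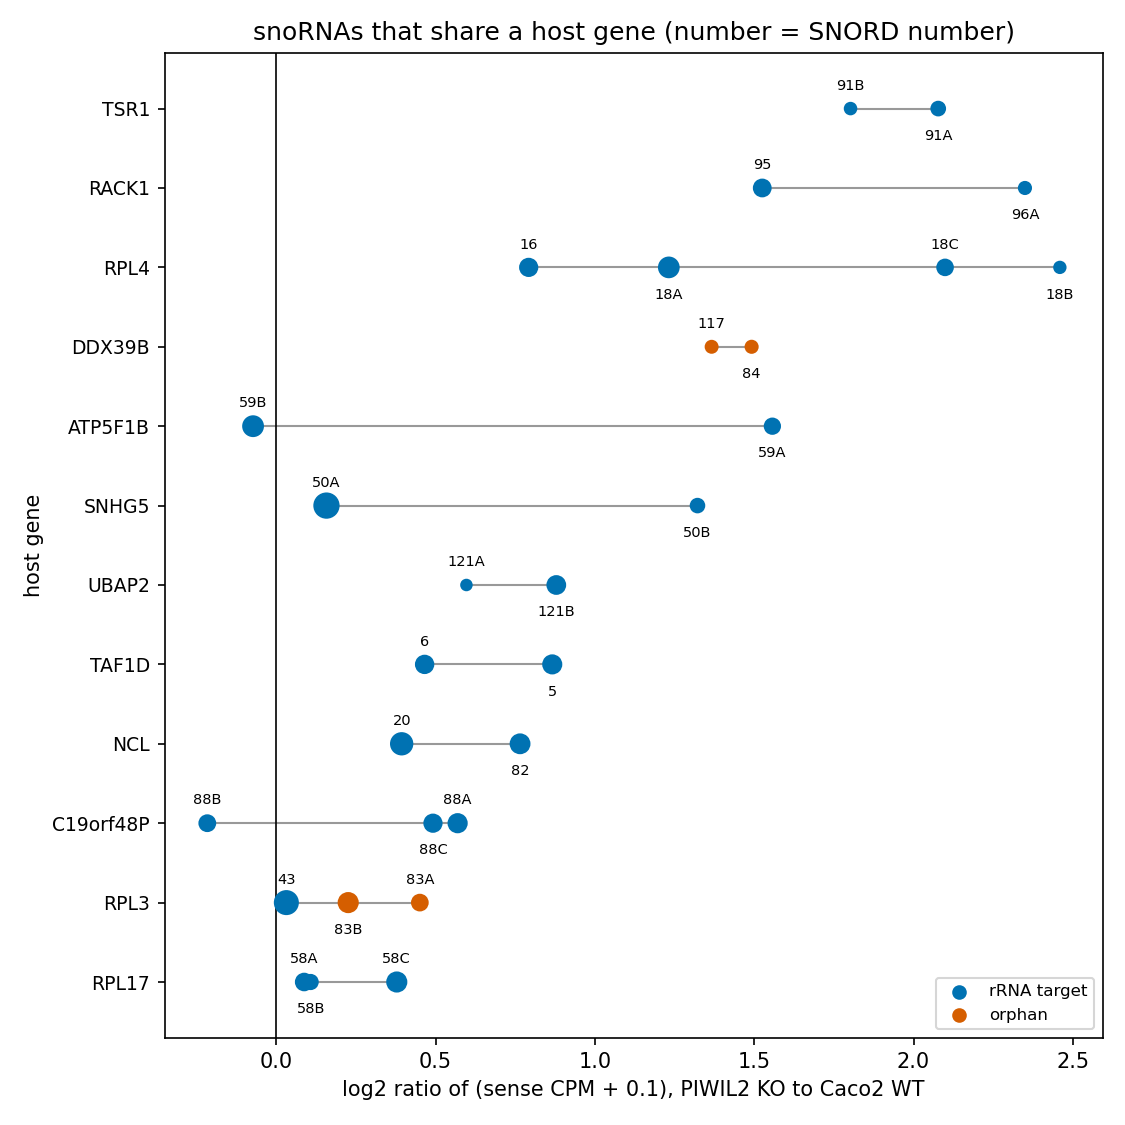
Log2 ratio of sense CPM plus 0.1, PIWIL2 KO to Caco2 WT (x axis), of the 29 box C/D snoRNAs that share a host gene with another (y axis, 12 host genes ordered by median); each point is 1 snoRNA labelled by its SNORD number, its area grows with the log of its mean CPM, its colour marks the target class, and grey lines join snoRNAs of 1 host. SNORD59A and SNORD59B lie far apart in ATP5F1B, whereas the snoRNAs of RPL17 lie close together.

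Ratios varied with level, though not in one direction throughout. The 4 members with a mean of at least 100 CPM had a median log2 ratio of 0.91, and 2 of them were at least 2-fold higher (50%). The 23 members with a mean of 1 to 10 CPM had a median log2 ratio of 1.10 and 14 were at least 2-fold higher (60.9%). Among the 17 with a mean of 10 to 100 CPM the median was 0.57 and 3 were at least 2-fold higher (17.6%). The share over all 161 rows, of any level, was 27.3%, so that of the 17 lay below it. The 4 under 1 CPM had a median of 2.05. Of these, SNORD18B and SNORD99 stood at 0.16 CPM in Caco2 WT and passed the minimum mean only through PIWIL2 KO. A high median was thus partly built in by the filter. Across the 48 members the log2 ratio and the log2 mean level had a Pearson correlation of -0.29 and a Spearman correlation of -0.32. All points share the same pooled libraries and the level enters both measures, so these are descriptions. With length, over the 44 members with a sequence, the Spearman correlation was 0.17.

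Several low members had intervals that lay above 1. SNORD95 and SNORD96A, both in RACK1 (a ribosome-associated scaffold protein gene), stood at 4.50 and 0.31 CPM in Caco2 WT and 13.1 and 1.99 CPM in PIWIL2 KO. SNORD91A and SNORD91B, both in TSR1 (a ribosome assembly factor gene), stood at 0.85 and 0.31 CPM in Caco2 WT and 3.91 and 1.33 CPM in PIWIL2 KO. The orphans SNORD84 and SNORD117, both in DDX39B (an RNA helicase gene), stood at 0.54 CPM each in Caco2 WT and 1.70 and 1.55 CPM in PIWIL2 KO. SNORD99, in SNHG12, had a ratio of 7.38 (1.79 to 68.2), from about 2 and 16 reads, and reached the minimum mean only through PIWIL2 KO.

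The remaining members lay between these extremes. In TAF1D (an RNA polymerase I factor gene), SNORD5 stood at 11.01 CPM in Caco2 WT against 20.15 in PIWIL2 KO, and SNORD6 at 9.54 against 13.21. Their quotient of 0.757 (0.551 to 1.04) held 1. In UBAP2, SNORD121B stood at 9.39 against 17.35 CPM, while SNORD121A, of 70.1% identical sequence, reached only 0.31 against 0.52 CPM. SNORD88C stood at 8.84 against 12.47 CPM, and its ratio was 1.64 times (1.09 to 2.49) that of SNORD88B.

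Among single members of a host, SNORD97 in EIF4G2 (a translation initiation factor gene) stood at 0.85 CPM in Caco2 WT against 2.80 in PIWIL2 KO, the ratio being 3.29 (1.65 to 7.13). SNORD72 in RPL37 and SNORD54 in RPS20, both ribosomal protein genes, had ratios of 2.23 (1.24 to 4.21) and 2.23 (1.09 to 4.79). SNORD41 in TNPO2 (a nuclear import receptor gene) had a ratio of 1.52 (1.04 to 2.23). The intervals of SNORD87 in SNHG6, SNORD126 in CCNB1IP1 and SNORD89 in RNF149 held 1, with ratios of 1.62, 1.29 and 1.21.

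The other box C/D snoRNAs of the table had lower ratios of their sums. The 8 in GAS5 had a median log2 ratio of 0.22 and their sum had a ratio of 1.01 (0.991 to 1.02), and the 8 in SNHG1 had a median of 0.63 and a ratio of 1.53 (1.5 to 1.57). The ratio of the members' sum was 1.89 times (1.84 to 1.94) that of GAS5 and 1.24 times (1.20 to 1.27) that of SNHG1, both independent of library scaling. Without SNORD17 the members' ratio of 1.47 lay below that of SNHG1, so the order of these 2 rests on SNORD17. The SNHG1 sum still held SNORD31, at 380.86 CPM in Caco2 WT against 684.22 in PIWIL2 KO, so 1.47 and 1.53 are not like measures. The 17 SNORA rows had a median of 0.73 and their sum a ratio of 1.89 (1.62 to 2.21), and the quotient of the members' ratio to theirs, 1.01 (0.862 to 1.18), held 1. This closeness also rests on SNORD17, without which the members' ratio of 1.47 (1.43 to 1.5) lay below that of SNORA. The SNORA sum was likewise left whole, with SNORA7A at 0.47 CPM in Caco2 WT against 4.91 in PIWIL2 KO. The 6 small Cajal body RNA (SCARNA) rows had a higher ratio than the members, the quotient being 0.808 (0.757 to 0.861). This rests on SCARNA9L, at 98.09 CPM in Caco2 WT against 245.93 in PIWIL2 KO, without which the SCARNA ratio was 1.23 (0.996 to 1.5).

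**Figure D4:**
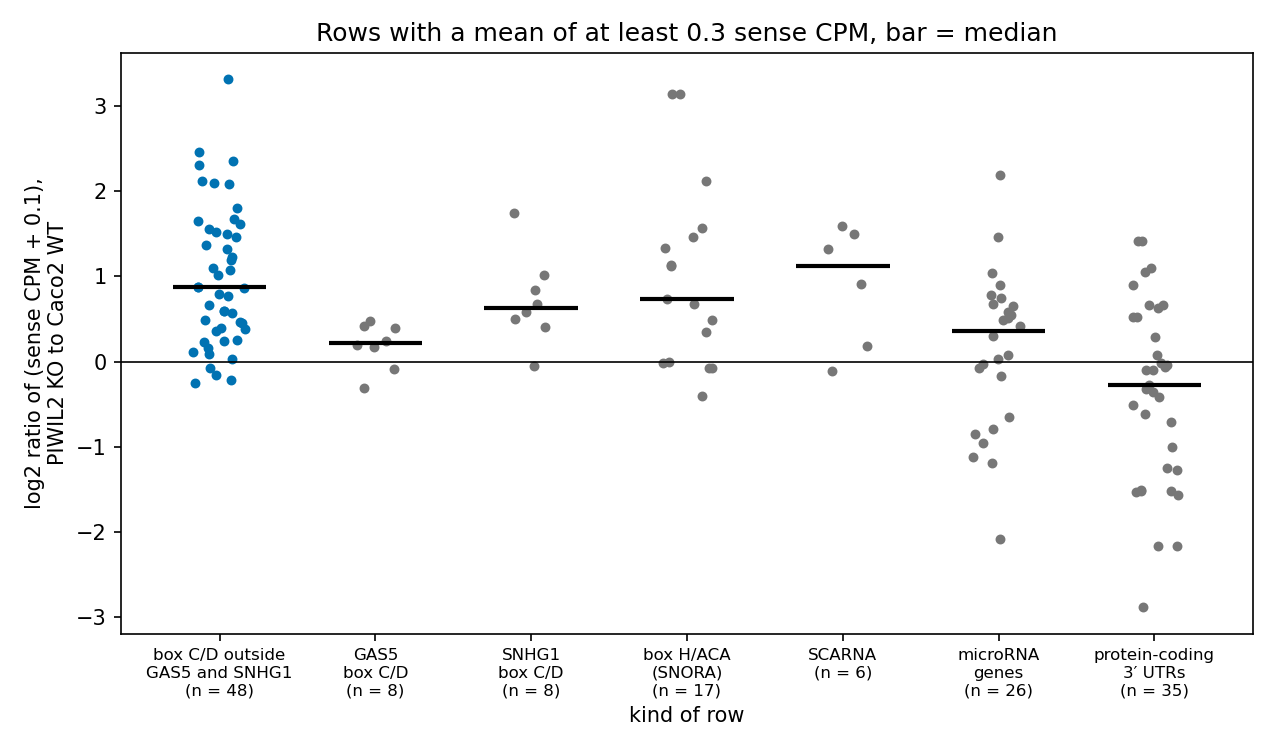
Log2 ratio of sense CPM plus 0.1, PIWIL2 KO to Caco2 WT (y axis), by kind of row (x axis, with the number of rows); each point is 1 row whose mean reached 0.3 CPM, spread sideways at random, and bars are medians. The members' median of 0.87 lies above those of GAS5 at 0.22, SNHG1 at 0.63 and SNORA at 0.73, and below that of SCARNA at 1.12.

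Little of the table bears on the host transcripts or on the proteins of the box C/D particle. Of the host genes, EIF4G2, SNHG5 and SNHG12 had rows of their own, and none exceeded 0.31 sense CPM, near the limit of 3 reads. Of the box C/D assembly factors on the pathway list, HSP90AA1 and ZNHIT3 had rows, at no more than 0.17 CPM. Of 8 tissue microRNA markers, MIR192, a gut microRNA, stood at 0.23 CPM in Caco2 WT against 1.40 in PIWIL2 KO, and MIR451A, an erythroid microRNA, at 0.16 and 0.07 CPM. The other 6 had no row, and a non-coding gene on the plus strand could not have had any. The label of the cells was therefore not checked by these data.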

How the data were processed

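Short RNA libraries from 3 samples each of Caco2 WT and PIWIL2 KO were sequenced (NovaSeq, SE50). The authors trimmed adapters with Cutadapt 1.15 and ran the piPipes small RNA pipeline on hg19 (Bowtie2 is also named in their processing notes), and deposited sense CPM and antisense CPM (the same as RPM, reads scaled to the uniquely mapped total), 1 pooled column per genotype and strand. The study calls these averages of the replicates, and whether reads or values were pooled was not settled. No per-sample depth, SD or test could be had.

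RefSeq names gave symbols for 3382 of 3437 rows. Members, lists and target classes were chosen with earlier results of these data known. Reads were estimated from CPM steps of 0.07765 in Caco2 WT and 0.07385 in PIWIL2 KO. With a tolerance of 0.0055 CPM, 30.3% of the 1522 values up to 2 CPM in Caco2 WT and 29.3% of 1507 in PIWIL2 KO were whole reads at these steps. Leaving out values under 0.05 CPM, a limit set after those shares were seen, gave the same steps and 68.9% of 669 and 67.9% of 651, and among members' values 81.0% of 21 and 69.2% of 13. Read numbers and intervals are therefore approximate. Named members were SNORD17, SNORD63, SNORD71, SNORD119 and SNORD18A, every member whose mean reached 10 CPM, the 5 highest and 5 lowest log2 ratios among those with at least 1 CPM, and lettered copies of these; all other members named were added after their values were seen. Hosts were the smallest same-strand gene containing the snoRNA in GENCODE 44. Ribosomal regions were placed by BLAST 2.17.0 of a 5.8S pseudogene (90.85% identity) and searched 3000 to 1000 bases before and 1300 to 6400 bases after the 5.8S start. Python 3.11.15 and scipy 1.17.1 were used, and the steps were tested on simulated data.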

Additional observations from a re-analysis of the deposited data

How the results depend on the processing

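No paired analysis was possible because each column pools the replicates of a genotype, and leaving out replicates could not be run for the same reason. Antisense alternatives gave no value, as all members are at 0. Of the alternative values for whole comparisons 68 stayed within their limits and 13 moved, and of those for named members 35 moved and 4 reversed, counting as reversed only a member whose counting interval had left out 1. With a pseudocount of 1 CPM, 14 members were at least 2-fold higher in place of 22. With equal sense sums of all rows, the log2 ratio of the members' sum was 0.50, 14 members were lower, the medians of the rRNA class and of the other hosts were 0.37 and 0.45, and SNORD20 (-0.033), SNORD50A (-0.27), SNORD58C (-0.047) and SNORD60 (-0.18) reversed. In all 8 named members changed sign there, the others being SNORD43 (-0.40), SNORD58A (-0.33), SNORD58B (-0.30) and SNORD83B (-0.20), whose intervals held 1. Centred on protein-coding rows, the sum was 1.20 and 0 were lower, as SNORD37, SNORD59B, SNORD67 and SNORD88B changed sign. The sum was 0.55 without SNORD17, and 0.43 without SNORD17 and SNORD63, an alternative chosen after seeing the data. With 1 row per family 2 were lower, with 1 value per host gene the ribosomal protein hosts had a median of 1.08, and with a minimum mean of 10 CPM, also chosen after seeing the data, 19 were higher and 2 lower. These changes follow from the construction of each alternative. Depth limits the members under 1 CPM, which rest on few reads.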
